A study of Mus musculus with 2 samples.

Results

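A chosen set of 10 genes was followed on a mouse expression array in colon carcinoma cells given lipopolysaccharide (LPS). The genes encode enzymes that make or use nitric oxide, arginine, tryptophan-derived kynurenine, itaconate and polyamines. They are Nos2, Arg1, Arg2, Ass1, Asl, Odc1, Sat1, Ido1, Kynu and Acod1, the last printed on the array under its older name Irg1. Every probe that carries one of these symbols was used, which gave 15 of 55681 probes and 25 of 59305 spots, for 10 of 34763 gene names. CMT93 is an established epithelial line from a rectal carcinoma of a C57BL/ICRF mouse, aged 19 months per the labels. The LPS group was 1 array of CMT93 cells kept for 24 h with 3 µg/mL of LPS, a glycolipid from the outer membrane of Gram-negative bacteria. The labels give this dose and time in the same words for both samples, and they are taken here to apply to the LPS sample alone, as its title says it was stimulated. The control group was 1 array of CMT93 cells from the same line, and both groups were grown in DMEM. Labelled RNA was made with one dye and read on 1 slide in 1 scan. Because each group was a single array, differences have no replicate check and no p-value, and precision is limited by the number of arrays.

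Several of these enzymes draw on arginine or tryptophan. Nitric oxide synthase 2 turns arginine into nitric oxide and citrulline, argininosuccinate synthetase and lyase rebuild arginine from citrulline, and the arginases split arginine into ornithine and urea. Ornithine decarboxylase then starts the polyamine pathway, and spermidine/spermine acetyltransferase starts polyamine breakdown and export. Indoleamine 2,3-dioxygenase 1 opens the kynurenine route of tryptophan, kynureninase acts further along it, and aconitate decarboxylase 1 makes itaconate from a citrate cycle intermediate. In macrophages, Nos2 and Acod1 are known as LPS-induced genes and Arg1 as a gene of interleukin-4 signalling.

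The probes of both arginase genes are shown because Arg1 carried the one difference past 2-fold and Arg2 is its mitochondrial relative, which stayed near background. Each is the 60-base sequence deposited with the array, written 5′ to 3′. The Arg1 probe lies at chr10:24636194-24636253 on the minus strand and the Arg2 probe at chr12:80252972-80253031 on the plus strand (mm9), with 26 and 27 bases that are G or C.
Arg1 probe: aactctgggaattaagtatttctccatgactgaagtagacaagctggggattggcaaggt
Arg2 probe: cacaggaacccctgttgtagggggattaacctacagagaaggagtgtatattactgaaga

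Of the enzymes that could be measured, Arg1 alone differed by more than 1.5-fold between the arrays. Of the 10 genes, 6 were measured, that is, well above background on both arrays (Nos2, Arg1, Ass1, Asl, Odc1 and Sat1). The other 4, Arg2, Ido1, Kynu and Acod1, were well above background on neither array. Among the 6, Arg1 alone was lower after LPS by 2-fold or more, and 0 were higher by that much. Over all 20380 measured genes, 0.569% were lower by 2-fold or more and 1.46% were higher. By probe, 1 of 10 measured probes was past 2-fold on the lower side and 0 on the higher side, where 0.513% and 1.29% of the 29053 measured probes lay. The counts were the same at 1.5-fold, which 2.66% of measured probes passed on the lower side and 3.39% on the higher side. The median log2 difference, LPS minus control, was 0.21 over the 6 genes and -0.02 over all measured genes. Of the 6, 4 lay above 0, as did 44.5% of all measured genes. In bulk RNA, fewer cells of a type and less RNA per cell cannot be told apart.

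**Figure D1:**
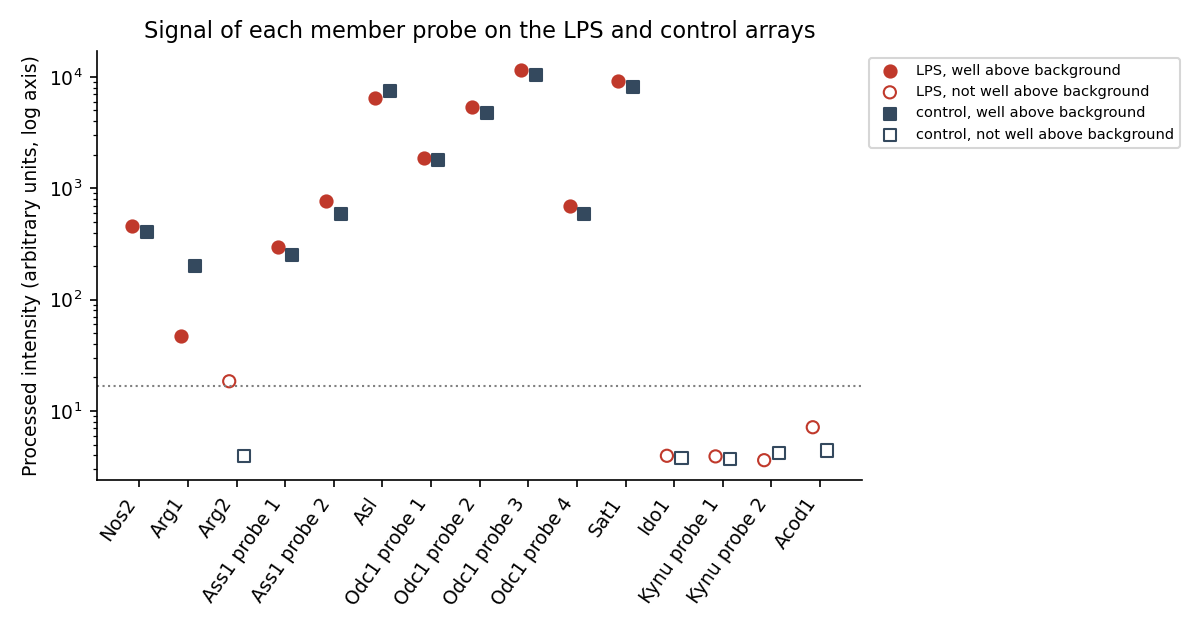
Processed intensity (arbitrary units, log axis) of each of the 15 probes on the LPS array (red circles) and the control array (dark squares), with filled symbols for probes well above background and open symbols for the rest. The dotted line marks 16.9, the higher of the lowest intensities called well above background on each array. Probes of 1 gene are numbered by their start in the transcript. Arg1 is the one filled pair set wide apart, at 47.3 on the LPS array and 201 on the control array.

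Arg1, the cytosolic arginase of liver, had a processed intensity of 47.3 on the LPS array, against 201 on the control array. Its spot was called well above background on both arrays. The floor, the lowest intensity so called, was 16.9 on the LPS array and 15.9 on the control array. Arg1 was thus 4.11-fold lower on the LPS array, a log2 difference of -2.04 ± 0.24. The error after ± is the scanner software's own error for the spots, carried over to the log2 difference. It holds a fixed share of 10% of the signal, and like every error here it covers the slide and not the cultures. The spread over spots of probes printed 10 times was 0.25 (SD of the log2 difference, median over 28 probes) in the dimmest of 4 brightness classes of equal size, where Arg1 lies. The difference was 8.46 times its spot error.

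Among the 20380 measured genes Arg1 ranked 15 from the lowest difference, and 17 genes were at least 4-fold lower. In that dimmest class, 1.49% of 5095 genes were lower by 2-fold or more and 2.37% were higher, so large differences in either direction were more frequent there than over all genes. Normexp is a background correction that fits signal and background as a sum. It was run with an offset of 50 added to every value, which draws dim probes together. With normexp, Arg1 was 2.26-fold lower, a log2 difference of -1.18, and ranked 23 from the lowest. That setting left 37 genes at least 2-fold lower. Under the other 5 settings its difference lay between -2.05 and -1.97. Arg1 has 1 probe with 1 spot, so no other probe of the gene was at hand.

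**Figure D2:**
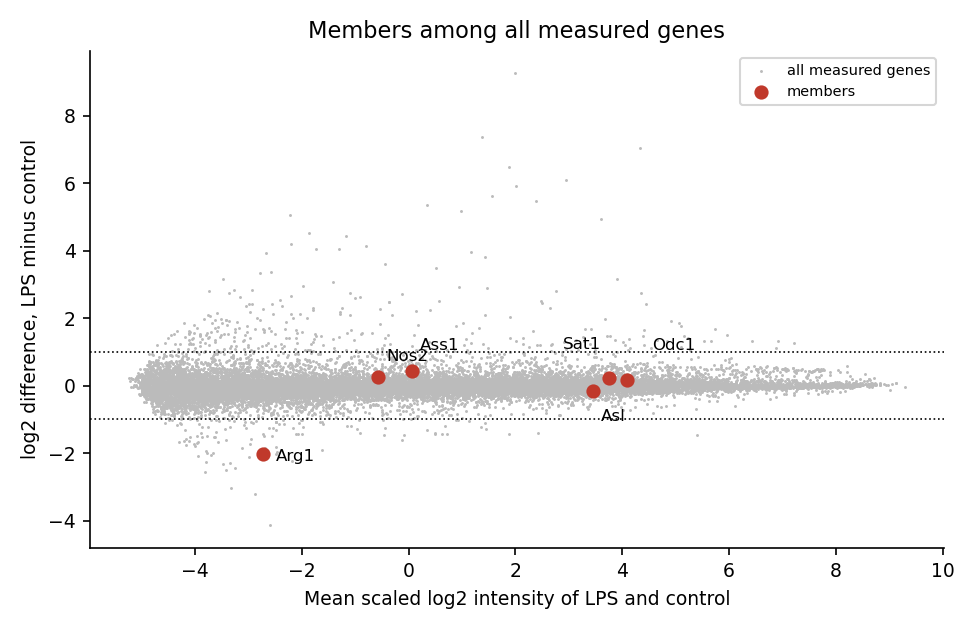
Log2 difference, LPS minus control, against the mean scaled log2 intensity of both arrays for all 20380 measured genes (grey), with the 6 measured enzyme genes in red and dotted lines at 2-fold. Arg1 lies below the lower line at -2.04, while the other 5 lie between -0.17 and 0.44 within the grey band.

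Arg2 encodes the mitochondrial arginase. Its 1 spot read 18.5 on the LPS array and 3.92 on the control array, where the software had put a surrogate value in place of a signal not above noise. The spot passed the looser test for a signal above background on the LPS array alone, and the stricter one on neither. The background-subtracted intensity was 17.1 on the LPS array and 0.27 on the control array. These readings give no level and no fold for Arg2.

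Nos2 encodes the inducible nitric oxide synthase and was well above background on both arrays. Its probe, at chr11:78773567-78773626 on the plus strand, was printed 2 times. The spots read 450 and 471 on the LPS array, against 369 and 433 on the control array. Spots on the same array are not replicates of a group. The difference was 0.25 ± 0.14 on the log2 scale, a 1.19-fold higher signal on the LPS array. The spots gave 0.33 and 0.17 on their own, and the difference stayed under 2 spot errors.

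Ass1 and Asl rebuild arginine from citrulline and lay on opposite sides of 0. For Ass1 the brighter probe, at chr2:31376068-31376127 on the plus strand, read 766 on the LPS array and 584 on the control array. Its log2 difference was 0.44 ± 0.20, or 1.35-fold higher, the highest of the 6 genes. The other Ass1 probe, at chr2:31375998-31376057, read 299.8 on the LPS array and 251 on the control array, a difference of 0.30 ± 0.21. Both probes were thus higher on the LPS array by less than 1.5-fold. The array's annotation gives the brighter probe a second transcript, that of the pseudogene Gm5424, and how much signal that transcript adds was not tested.

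Asl read 6482 on the LPS array and 7531 on the control array, a log2 difference of -0.17 ± 0.20. It was the one measured gene besides Arg1 that was lower on the LPS array, by less than 1 spot error. Its 60-base probe on the minus strand covers chr5:130487964-130488549, a span of 586 bases of the genome, so the probe crosses an exon junction.

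Odc1, the entry enzyme of polyamine synthesis, was measured by 4 probes that all lay slightly above 0. The probe in the earlier part of the transcript, at chr12:17554799-17554858, read 1872 on the LPS array and 1779 on the control array, a difference of 0.12 ± 0.20. The brightest probe, at chr12:17557831-17557890, read 11468 on the LPS array and 10452 on the control array, a difference of 0.18 ± 0.20. The remaining probes, at chr12:17557836-17557895 and chr12:17557869-17557928, gave 0.21 and 0.27. The last 3 probes overlap, and the first of them shares 55 and 22 bases with the others, so they are not separate measurements of the transcript. The probe at chr12:17557836-17557895 was designed on another cDNA clone and differs from the brightest probe at 1 of the 55 shared bases. It differs from the probe at chr12:17557869-17557928 at 4 of their 27 shared bases. All 4 probes gave a difference between 0.12 and 0.27.

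Sat1, which acetylates spermidine and spermine, read 9187 on the LPS array and 8066 on the control array. Its probe lies at chrX:151647856-151647915 on the minus strand, and its difference was 0.23 ± 0.20, or 1.17-fold higher on the LPS array. Of the 10 measured probes of the 6 genes, 8 differed by no more than 2 spot errors. The exceptions were Arg1 and the brighter probe of Ass1, at 2.14 spot errors. The spread over repeated spots was smaller, 0.028 for probes as bright as Sat1, and each of the 10 differences was larger than that spread at its own brightness. Neither error holds the spread between cultures.

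**Figure D3:**
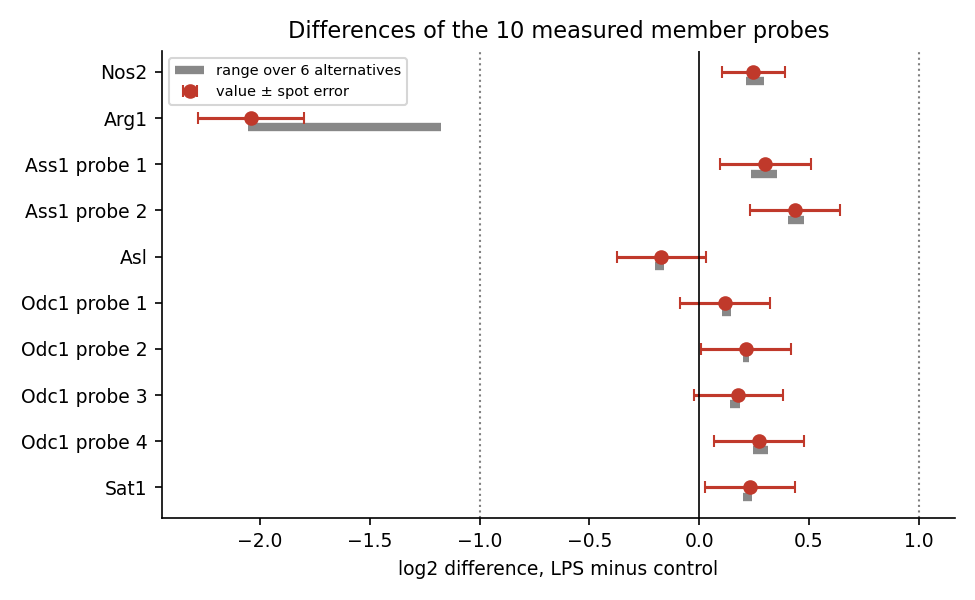
Log2 difference, LPS minus control, of the 10 measured probes (red points, bars for the spot error), with grey bars for the range over 6 other background and scaling settings and dotted lines at 2-fold. Arg1 lies at -2.04 with a grey bar that reaches -1.18, and the other 9 probes lie between -0.17 and 0.44.

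Ido1 and Kynu, both of the kynurenine route, gave no usable signal. Ido1 read 3.96 on the LPS array and 3.79 on the control array, both surrogate values set by the software. The Kynu probe at chr2:43537195-43537254 read 3.62 on the LPS array and 4.23 on the control array, and the one at chr2:43459748-43459807 read 3.91 on the LPS array and 3.74 on the control array. Of the Kynu readings, only the 4.23 on the control array was not a surrogate value. All lay below the floor of 15.9 to 16.9, so the arrays put only an upper limit on these transcripts in both groups.

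Acod1, the itaconate-forming enzyme, was printed 10 times on each array. On each array the software marked 1 of the 10 as an outlier of the set, at 36.5 on the LPS array and 65.3 on the control array. They were different spots, and the partner of each on the other array was under the floor. The 8 spots free of such a mark on both arrays ranged from 3.99 to 10.02 with a median of 7.81 on the LPS array. On the control array they ranged from 3.49 to 8.44 with a median of 3.82. The ranges overlapped, and the LPS reading was the higher one in 7 of the 8 pairs. Most of the control readings were surrogate values set by the software. In 1 pair both readings were, at 3.99 on the LPS array and 3.82 on the control array. The count of pairs is thus not read as a direction, and spots on the same array are not replicates.

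None of the 8 Acod1 spots was well above background on either array. By the looser test for a signal above background, 7 of 8 passed on the LPS array and 1 of 8 on the control array. The control readings were surrogate values on 7 of the 8 spots, against 1 of 8 on the LPS array. Background-subtracted, the median was 7.46 on the LPS array and -0.06 on the control array. No fold is given, since both groups lay under the floor.

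**Figure D4:**
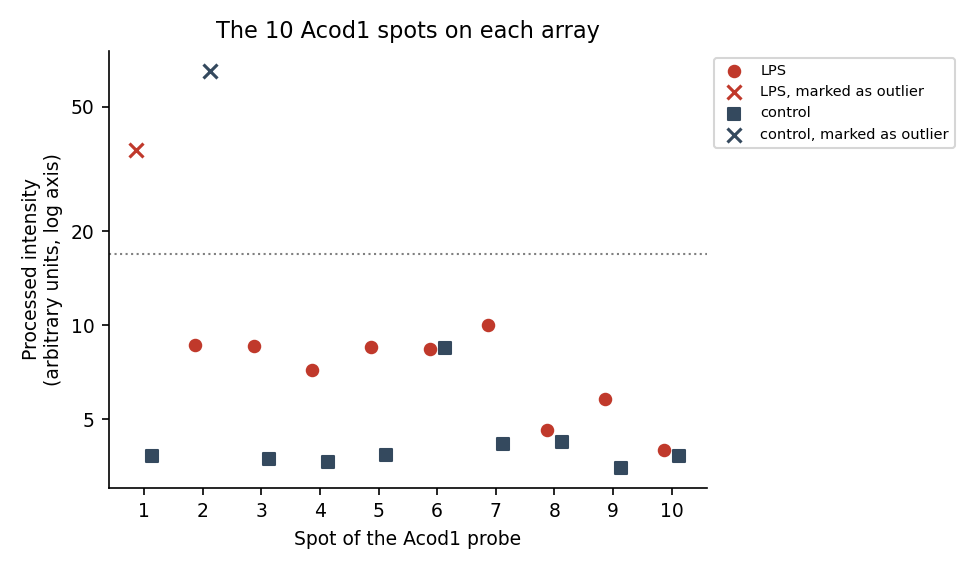
Processed intensity (arbitrary units, log axis) of the 10 Acod1 spots on the LPS array (red circles) and the control array (dark squares), with crosses for the spot marked as an outlier on each array and a dotted line at 16.9. The unmarked LPS spots reach 10.02 and the unmarked control spots reach 8.44, all under the line.

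Among other genes of these pathways, each taken by its brightest probe, no measured gene differed by 2-fold. Of 102 listed genes 84 were measured, and 0 of the 84 reached 2-fold in either direction. Over all measured genes 1.46% were higher by that much and 0.569% lower, so the 0 is not read as a result about these pathways. At 1.5-fold, 3 of the 84 were higher and 4 were lower, against 3.59% higher and 2.66% lower over all measured genes. The median difference of the 84 was -0.01.

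For nitric oxide synthesis and signalling, 16 of 19 genes were measured and all 16 were within 1.5-fold, with a median of 0.00. Hmox1, which encodes heme oxygenase 1, was highest at 0.50 ± 0.20, with 0.57 on its other probe. Gucy1a2, a subunit of the nitric oxide receptor guanylate cyclase, stood at 0.44 ± 0.20. Nos1ap, a binding partner of the neuronal synthase, was lowest at -0.52 ± 0.21 (-0.31 with normexp), followed by Pts, an enzyme of tetrahydrobiopterin synthesis, at -0.39 ± 0.20. Tetrahydrobiopterin is the cofactor of the synthases, and Gchfr, the regulator of its entry enzyme, was at 0.40 ± 0.20, chosen here after its value was seen. Nostrin was well above background on the control array alone, at 7.59 on the LPS array and 19.9 on the control array. It is named as the one gene of the list that passed the strict background test on 1 array only. After scaling, its control signal was 1.14-fold the lowest LPS signal called well above background. That fold leaves out spot error. Arg2, at 18.5 on the LPS array, exceeded that lowest signal without passing the strict test, so the fold is not a firm lower limit.

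For arginine supply and use, 15 of 20 genes were measured, 2 were lower by 1.5-fold or more and 0 were higher, with a median of -0.15. Pycr1, which encodes an enzyme of proline synthesis, read 207 on the LPS array and 410 on the control array, a difference of -0.94 ± 0.21. Its other measured probe gave -0.05, so the probes of Pycr1 disagreed. The cationic amino acid transporter gene Slc7a3 stood at -0.59 ± 0.21, or -0.42 with normexp, which is within 1.5-fold. Slc25a2, which encodes a mitochondrial ornithine carrier, was dim and highest at 0.48 ± 0.36 (0.20 with normexp), and Slc7a1, the general arginine transporter gene, stood at 0.15 ± 0.20. The urea cycle genes Cps1, Otc and Nags were well above background on neither array, as was Slc7a2. Cps1 read 8.31 on the LPS array and 18.5 on the control array, and no fold is given for it.

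For tryptophan and its products, 19 of 25 genes were measured, 2 were higher by 1.5-fold or more and 2 were lower, with a median of 0.00. Ahr encodes a receptor that binds kynurenine and other ligands. It read 16667 on the LPS array and 11006 on the control array, a difference of 0.64 ± 0.20, with 0.61 on its other probe. Of its target genes, Cyp1a1 read 79.4 on the LPS array and 161 on the control array, a difference of -0.97 ± 0.22 that was -0.62 with normexp. Other targets on the list lay nearer to 0, with Cyp1b1 at 0.25, Tiparp at -0.05 and Ahrr at -0.15. Haao, an enzyme of the quinolinate branch, stood at 0.63 ± 0.21, and Tph1, which starts serotonin synthesis, at -0.66 ± 0.21. With normexp these were 0.49 and -0.42, both within 1.5-fold. Tdo2 and Ido2, which catalyse the same first step as Ido1, were well above background on neither array.

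For itaconate and the citrate cycle, 17 of 18 genes were measured, 1 was higher by 1.5-fold or more and 0 were lower, with a median of 0.09. Clybl, which encodes the mitochondrial citramalyl-CoA lyase of itaconate breakdown, read 496 on the LPS array and 280 on the control array. Its difference was 0.87 ± 0.21, with 0.83 on its other probe. Idh1 stood at 0.29 ± 0.20, and the lowest were Sdhd, a subunit of succinate dehydrogenase, at -0.24 ± 0.20 and Idh3a at -0.23 ± 0.20.

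For polyamines, 17 of 20 genes were measured and all 17 were within 1.5-fold, with a median of -0.08. Azin1, which encodes an inhibitor of the antizymes that restrain ornithine decarboxylase, had disagreeing probes, at -0.11 on the brightest and between -0.60 and -0.12 on the others, the lowest of which is past 1.5-fold. Eif5a, the translation factor that carries the spermidine-derived residue hypusine, was highest at 0.22 ± 0.20, and Amd2, a decarboxylase gene that supplies aminopropyl groups, was at 0.19 ± 0.20. Amd1, its close relative, was not analysed here, and signal of Amd1 on the Amd2 probes was not tested. The lowest were Atp13a3 and Atp13a2, which encode polyamine transporters, at -0.45 ± 0.20 and -0.37 ± 0.20.

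**Figure D5:**
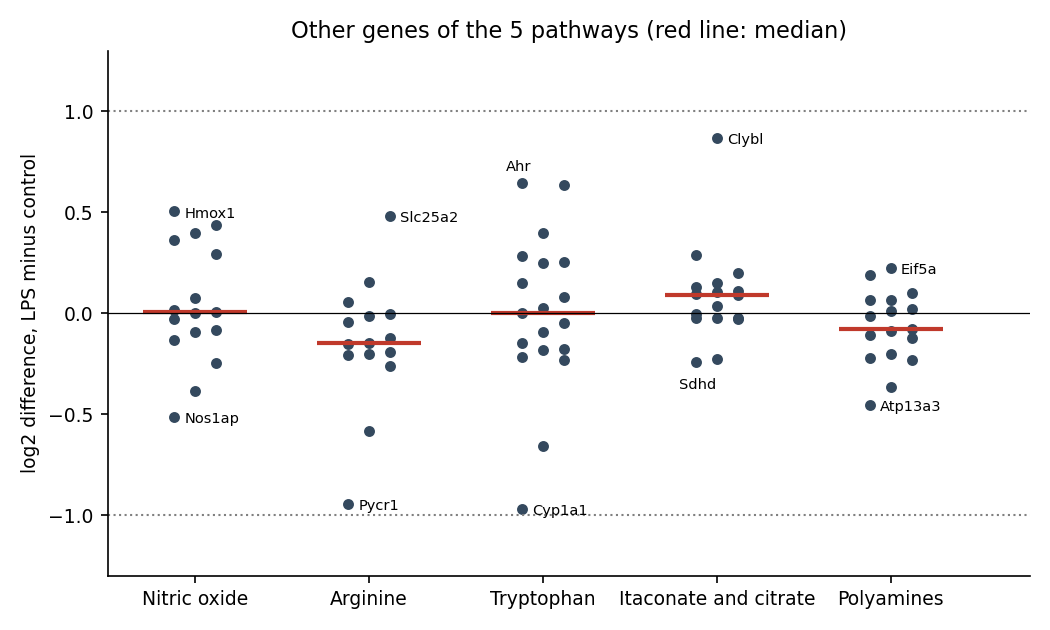
Log2 difference, LPS minus control, of the measured genes of 5 pathway lists (dark points) with the median of each list as a red line and dotted lines at 2-fold. All points lie between -0.97 and 0.87, and the highest and lowest gene of each list is named.

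Markers of the labelled cell type were present. Of 12 colon epithelium markers 11 were measured, and the remaining one, Cdx2, was well above background on neither array. All 11 lay below 0, as Arg1 did, with a median of -0.25, while 44.5% of all measured genes lay above 0. Of the 11, 3 were lower by 1.5-fold or more, Lgals4 at -1.45 ± 0.20, Krt20 at -0.92 ± 0.22 and Vil1 at -0.72 ± 0.20, against 2.66% of all measured genes. Cdh1 was nearest to 0, at -0.01 ± 0.06, and lay between -0.05 and 0.00 over the other settings, touching the upper side of 0. Their part in the Arg1 difference was not tested.

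Macrophages, the cells best known for Nos2, Arg1 and Acod1, were represented by 19 markers. Of these, 6 were measured, and 8 were well above background on neither array, among them Lyz2, Tyrobp and Spi1. Of the 6, 5 lay above 0, and Fcer1g lay at -0.18. Csf1r read 1587 on the LPS array and 1575 on the control array. Cd68 read 1273 on the LPS array and 1064 on the control array, a difference of 0.30 ± 0.20, with 0.43 on its other probe. Another 3 markers passed the strict background test on the LPS array alone. Set against the control floor, or their own control reading where higher, their folds were 1.96 (Adgre1), 1.83 (Mrc1) and 1.52 (Mpeg1). On the control array alone 2 passed. Set against the LPS floor, their control signals gave folds of 3.03 (Ptprc, the pan-leukocyte marker gene) and 1.92 (Itgax). These folds leave out spot error and are not firm lower limits. How many of all genes passed on 1 array alone was not counted, so these marker counts are not read as a difference. The summed scaled signal of the 6 was 17.1 on the LPS array and 15.9 on the control array, in units of each array's 75th percentile, and their median difference was 0.11. Most of that sum came from Itgam, at 7780 on the LPS array and 7516 on the control array, whose other measured probes gave -0.43 and -0.22. For neutrophils 4 of 6 markers were measured and their median was 0.02. They were Csf3r at -0.06, Ly6g at -0.17, Elane at 0.09 and Camp at 0.54 ± 0.34. The other measured probe of Camp gave -0.38, so its probes disagreed. Csf3r read 58311 on the LPS array and 62531 on the control array, and Ly6g read 15098 and 17504. Ngp passed the strict background test on the LPS array alone, and Mpo on neither. For fibroblasts 2 of 5 were measured, Col1a2 at 0.91 ± 0.23 and Col1a1 at 0.33 ± 0.21. With normexp these were 0.52 and 0.24, both within 1.5-fold. Pdgfra was well above background on the control array alone, at 4.41 on the LPS array and 34.6 on the control array. Set against the LPS floor, its control signal gave a fold of 1.96, with the same limits. The part of any such cells in the Arg1 and Nos2 values was not tested.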

How the data were processed

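The authors deposited one-colour scanner output of Agilent Feature Extraction 10.10.1.1. Its processed intensity had background and a trend over the slide removed, and a surrogate where the signal was not above noise, per the file headers. Probe positions are on mm9. Outlier spots on either array (223) and control spots were left out. Intensities were scaled by each array's 75th percentile, 631 for LPS and 651 for control, and put on the log2 scale. Spots of a probe were averaged, and a gene took its brightest probe. A probe was well above background where the majority of its spots were. Symbols were updated through RefSeq accessions (GRCm38.p6), which matched 28026 of 55677 probes.

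The members and lists were chosen with earlier results of these data known. Named genes are all members, and in each pathway list the 2 highest and 2 lowest. Others illustrate a count or were picked outside that rule, as Gchfr, Azin1 and the Ahr targets Cyp1b1, Tiparp and Ahrr were. No test between the groups was run. Exon and UTR positions of probes were not analysed here. R 4.3.3, limma 3.58.1, Python 3.11.15, numpy 2.4.6, pandas 2.3.3 and matplotlib 3.10.9 were used.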

Additional observations from a re-analysis of the deposited data

How the results depend on the processing

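No paired analysis was possible because each group has 1 array. Over 6 background and scaling settings, all 60 values of the 10 measured probes kept their sign, and 59 moved by less than the spot error. The exception was Arg1 with normexp, at -1.18, still past 2-fold. That setting gave 171 genes at least 2-fold higher and 37 lower over the array, and a median of -0.075 for the arginine list. Quantile normalization put the medians of the tryptophan and itaconate lists at -0.053 and 0.036. A looser flag for signal above background gave 747 higher and 556 lower genes over the array. Without a background filter there were 1362 and 1179, the median over all genes was 0.046 and that of the polyamine list was -0.015. With either of these filters 1 gene of the nitric oxide list, Nostrin, and 1 of the arginine list, Cps1, was at least 2-fold lower. Both read under the floor on the LPS array, at 7.59 and 8.31, so these folds are not firm. Without a filter 1 member, Arg2, was at least 2-fold higher. A filter sets which genes are counted, and the cause of the other changes was not tested. The background floor limits what can be said of Arg2, Ido1, Kynu and Acod1.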
